A study of Mus musculus with 16 samples.

Results

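*Avp* encodes the precursor of vasopressin and *Oxt* the precursor of oxytocin. Both genes were found by symbol, 2 of the 28683 gene symbols in the tables, and were followed through every neuron type, every cell type, the 4 groups of mice and the barcodes too poor in genes to count as cells. The series measured single cells of the hypothalamus and preoptic area of 16 female mice by Drop-seq, with 1 library per mouse, in which a barcode marks the cell and a unique molecular identifier (UMI) marks each RNA molecule. All mice carried the floxed *Esr1* allele on a mixed CD-1;129P2 background. *Esr1* cKO mice also carried an Nkx2-1 Cre transgene, which deletes the estrogen receptor *Esr1* only where *Nkx2-1* was active during development, and their littermates without Cre served as wild type. Mice were 8 to 10 weeks old at the start and received 28 daily subcutaneous injections of tamoxifen at 0.1 mg/kg or of the vehicle, with tissue taken 2 h after the last one. Both were given in corn oil with ethanol, and the stated ethanol content of the vehicle was not that of the tamoxifen solution. The groups were wild-type oil (3 mice), wild-type tamoxifen (5), *Esr1* cKO oil (4) and *Esr1* cKO tamoxifen (4). The question here is where in these libraries the transcripts of both genes lay, and whether treatment or genotype went with a different level.

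Vasopressin and oxytocin are short peptides made from larger precursors that also hold a carrier protein, neurophysin. Large magnocellular neurons of the paraventricular and supraoptic nuclei make either hormone and send it down their axons to the posterior pituitary, where vasopressin is released to retain water and oxytocin for birth and milk ejection. Smaller neurons make vasopressin too, among them cells of the suprachiasmatic nucleus, the circadian clock of the brain, in which *Avp* is an output of the clock. Both genes sit side by side and point toward each other, and estrogen-sensitive circuits are known to regulate both.

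Where the genes are alike bears on what a count of either can mean, so the shared sequence is shown first. In the mm10 annotation (GENCODE), *Oxt* (ENSMUSG00000027301.7) lies on the plus strand at chr2:130576173-130577054 and *Avp* (ENSMUSG00000037727.6) on the minus strand at chr2:130580620-130582554, with 3565 bases between them and 3 exons each. The 9 codons of the hormones are in exon 1, and capitals mark the 5 bases, in 3 codons, at which they differ.
Avp, chr2:130582446-130582472, minus strand: tgctacTtccagaactgcccAAGAggc
Oxt, chr2:130576267-130576293, plus strand: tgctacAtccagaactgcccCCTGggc
Exon 2, which encodes most of neurophysin, is 202 bases long in both genes, and 193 of those bases (95.5%) are identical. The longest identical run is 125 bases, at chr2:130576591-130576715 in *Oxt* and chr2:130581133-130581257 in *Avp*.
Run shared by Oxt and Avp: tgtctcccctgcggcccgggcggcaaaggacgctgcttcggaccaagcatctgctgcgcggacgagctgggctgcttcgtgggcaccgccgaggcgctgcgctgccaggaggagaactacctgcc
The run ends 255 bases from the 3′ end of the 537-base *Oxt* transcript and 307 bases from that of the 577-base *Avp* transcript. Drop-seq reads come from the 3′ part of a transcript, and how far from its end they start is not given. The last exons, 178 bases in *Oxt* and 230 in *Avp*, share no run longer than 8 bases. The deposited tables hold counts without read positions, so how many reads of either gene fell in the shared run was not tested.

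The 250 bases before each gene start differ in motifs tied to nuclear receptors and to the clock. They are shown because the comparisons below concern an estrogen receptor and a clock nucleus, and were taken from RefSeq (GRCm38.p6). Positions count from the RefSeq gene starts, which lie slightly upstream of the GENCODE starts given above for both genes. In the *Oxt* promoter, at chr2:130575919-130576168 on the plus strand, capitals mark the half-site GGTCA, or TGACC on the other strand, which nuclear receptors bind.
Oxt promoter: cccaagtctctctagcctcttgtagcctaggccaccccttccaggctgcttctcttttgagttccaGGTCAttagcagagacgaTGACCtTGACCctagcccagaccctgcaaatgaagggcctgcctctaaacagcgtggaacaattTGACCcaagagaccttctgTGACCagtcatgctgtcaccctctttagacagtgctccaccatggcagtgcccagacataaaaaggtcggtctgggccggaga
The half-site occurred 5 times, at -184 to -180, -166 to -162, -160 to -156, -102 to -98 and -83 to -79 from the start. Of 32851 windows of 300 bases around gene starts, 40.5% held at least 1 half-site and 0.0944% held as many as *Oxt*. The second and the third copy form a direct repeat with 1 free base, GGTCANGGTCA, which 0.0791% of windows held, while the full palindrome GGTCANNNTGACC, in 0.0700% of windows, was not found in either promoter. In the *Avp* promoter, at chr2:130582589-130582838 on the minus strand, capitals mark an E-box, CACGTG, the element that clock factors bind.
Avp promoter: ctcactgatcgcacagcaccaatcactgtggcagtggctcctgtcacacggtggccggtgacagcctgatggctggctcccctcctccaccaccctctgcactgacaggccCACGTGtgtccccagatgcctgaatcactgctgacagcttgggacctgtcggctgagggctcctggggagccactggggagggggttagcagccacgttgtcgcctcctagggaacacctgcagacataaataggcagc
The E-box stood at -139 to -134, and 7.15% of windows held 1. The *Avp* window held no half-site and the *Oxt* window no E-box. The cAMP response element half-site TGACG, in 20.8% of windows, was in neither. Motifs were searched on both strands, and a match describes the sequence alone.

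Each library gave between 2634253 and 8038158 UMIs, with 1717573 to 5457033 in the cells kept. A barcode counted as a cell if its genes numbered over 200 but below 4000 and its mitochondrial UMIs stayed under 15%, which left 55675 of 146538 barcodes. Of 54478 distinct barcodes among the kept cells, 520 occurred in more than 1 library. Replicate 3 of the wild-type oil group and replicate 3 of the *Esr1* cKO tamoxifen group stood apart from the other libraries on the first principal component of the neuron sums, which held 49.5% of the variance. *Esr1* itself averaged 60.1 ± 23.1 CPM (counts-per-million, here UMIs of a gene scaled to all UMIs of the set) in neurons of wild-type oil mice, 66.1 ± 7.82 in wild-type tamoxifen, 48.7 ± 7.65 in *Esr1* cKO oil and 52.9 ± 26.3 in *Esr1* cKO tamoxifen mice (SD, n = 3, 5, 4 and 4). The counts hold no read positions, so whether these tags cover the deleted part of the gene was not tested. They do not check the deletion.

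*Avp* was among the most abundant messages of these neurons, and *Oxt* varied far more from mouse to mouse. Neurons, the cluster of 9148 cells with all 9 neuronal markers, held 79279 *Avp* UMIs and 20034 *Oxt* UMIs, which ranked them 5th and 41st of 24990 genes detected there. *Avp* ran from 1673 to 14401 CPM over the 16 mice with a median of 4052. *Oxt* ran from 66.7 to 3326 CPM with a median of 744.

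*Avp* in neurons stood at 2277, 1673 and 5718 CPM in the wild-type oil mice. It stood at 2696, 14401, 2594, 4021 and 1894 CPM in the wild-type tamoxifen mice. The *Esr1* cKO oil mice had 2501, 4148, 1973 and 4791 CPM and the *Esr1* cKO tamoxifen mice 7134, 8673, 4082 and 4143 CPM. All 4 groups overlapped, and wild-type tamoxifen replicate 2 was higher than any other mouse.

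*Oxt* in neurons stood at 84.9, 274 and 339 CPM in the wild-type oil mice. It stood at 354, 2171, 135, 1677 and 2228 CPM in the wild-type tamoxifen mice. The *Esr1* cKO oil mice had 1135, 2539, 1369 and 66.7 CPM and the *Esr1* cKO tamoxifen mice 3326, 218, 154 and 1361 CPM. Each of the last 3 groups held both very high and very low mice, and the 3 wild-type oil mice were all in the low range of the others.

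**Figure D1:**
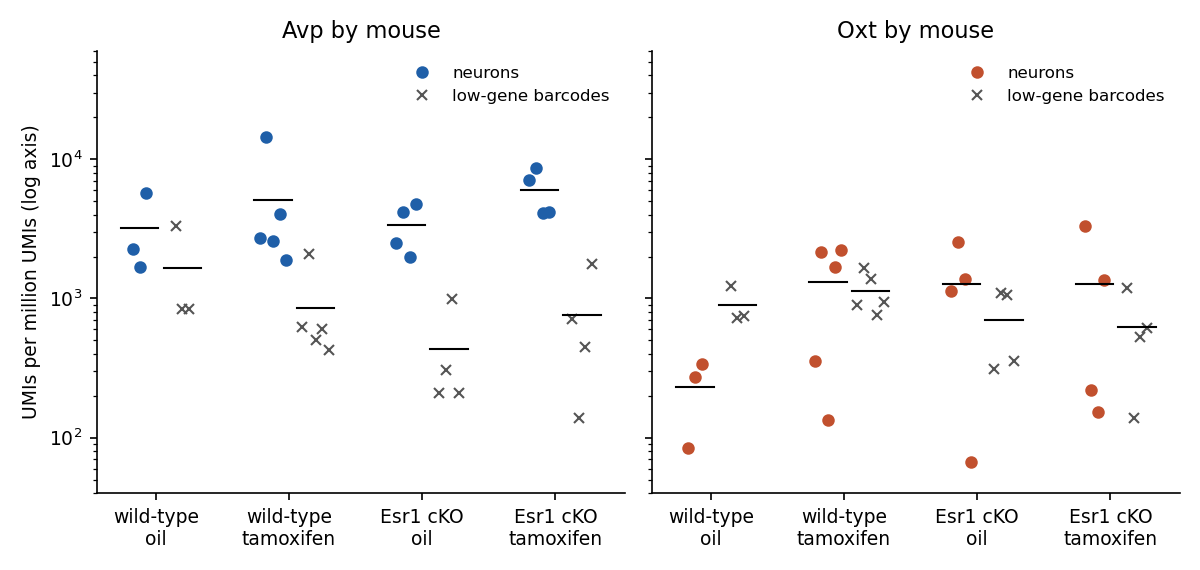
Level of *Avp* and of *Oxt* in each mouse by group, in CPM on a log axis, for neurons and for low-gene barcodes. Each point is 1 mouse and each short line a group mean. In neurons *Avp* spans 1673 to 14401 and *Oxt* 66.7 to 3326, and the groups overlap for both genes.

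The level of *Oxt* in a mouse rested on very few cells. Only 57 neurons held at least 10 *Oxt* UMIs, called *Oxt*-rich here, with 1 to 8 per library and a median of 3. The single neuron richest in *Oxt* carried from 27.5% to 94.1% of the neuronal *Oxt* of its library, with a median of 66.3%, and over 50% in 11 of 16 libraries. In *Esr1* cKO tamoxifen replicate 1, the mouse with the highest level, 1 neuron held 3744 of the 4226 *Oxt* UMIs, and in wild-type tamoxifen replicate 5 a single neuron held 2179 of 2372. *Avp*-rich neurons, with at least 10 *Avp* UMIs, numbered 524, with 4 to 55 per library and a median of 36. The richest of them carried 12.4% to 86.4% of the neuronal *Avp* of its library with a median of 23.0%, and over 50% in 4 libraries. In 45 neurons both genes reached 10 UMIs, and 10 of the *Avp*-rich and 3 of the *Oxt*-rich neurons were called doublets.

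The filter on genes removed more *Oxt* than it kept. The 442 barcodes with 4000 genes or more, with a median of 13618 UMIs, held 8.77% of all UMIs, but 45540 *Oxt* UMIs, 57.8% of the total of 78822. They held 28493 *Avp* UMIs, 23.7% of the total of 120284. Few of these barcodes carried the genes. The 17 with at least 10 *Oxt* UMIs held 99.7% of their *Oxt*, and the 26 with at least 10 *Avp* UMIs held 99.4% of their *Avp*. Neurons held 25.4% of all *Oxt* and 65.9% of all *Avp*. Per library, *Oxt* in the removed barcodes ran from 3.11 to 25866 CPM, and 9 libraries had at least 1 such barcode with 10 or more *Oxt* UMIs. Among the wild-type oil mice, whose kept neurons were low in *Oxt*, the removed barcodes had 4.86, 23.0 and 25866 CPM. In the last of these mice, replicate 3, 2 barcodes held nearly all of the 10130 *Oxt* UMIs removed. The mitochondrial limit removed a further 2059 *Avp* and 3202 *Oxt* UMIs in 13661 barcodes.

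Clusters of neurons made without *Avp* and *Oxt* among the clustering genes put the *Avp* transcripts mainly in 2 of 23 clusters. The *Avp* cluster, 303 cells with a median of 3408 UMIs, held 75.7% of the neuronal *Avp*, at 49431 CPM, and 75.2% of the neuronal *Oxt*, at 12415 CPM. Its other leading genes included *Trh*, *Sst* and the transcription factors *Otp*, *Sim1* and *Pou3f2*, which specify paraventricular neurons. Of its cells, 46.5% had at least 1 *Avp* UMI and 34.0% at least 1 *Oxt* UMI. What the cells without a UMI of either gene were was not tested.

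The *Vip* cluster, 933 cells with a median of 1373 UMIs, was suprachiasmatic-like by *Vipr2*, *Prokr2*, *Prok2*, *Nms*, *Vip*, *Lhx1*, *Six6* and *Rorb*. *Grp*, also on the list of suprachiasmatic markers, was not higher there, at 21.5 CPM against 34.7 over all neurons pooled. The cluster held 18.1% of the neuronal *Avp* at 9963 CPM, with at least 1 *Avp* UMI in 62.6% of its cells. It also held 341 of the 524 *Avp*-rich neurons. *Oxt* there was 77 UMIs in all, 53.4 CPM, and no cell held more than 3. That level lay within the range of the clusters other than the *Avp* and *Ndnf* clusters, 13 to 538 CPM. In the *Vip* cluster *Vipr2*, the receptor for vasoactive intestinal peptide, stood at 286 CPM against 2.47 in the *Avp* cluster, and *Rgs16*, a regulator of G-protein signalling, at 708 against 9.89.

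*Avp*-rich cells of these 2 clusters differed in how much of the cell was *Avp*. In the *Avp* cluster 112 cells had a median of 394.5 *Avp* UMIs, 9.18% of the cell, with up to 3158 UMIs and up to 43.3%. In the *Vip* cluster 341 cells had a median of 27 UMIs, 1.96% of the cell, and no more than 253 UMIs. These values describe the cells that reached 10 UMIs.

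A cluster led by *Ndnf*, 1470 cells with a median of only 446 UMIs, held 3.48% of the neuronal *Avp* and 21.4% of the neuronal *Oxt*, with 37 *Avp*-rich and 23 *Oxt*-rich cells. A cluster of 32 cells led by the microglial gene *Ctss* had 9363 CPM of *Avp*, of which 99.4% came from 1 cell. A cluster of 150 cells led by the astrocyte gene *Itih3* had 1469 CPM and 15 *Avp*-rich cells. The other 18 clusters lay between 8.45 and 612 CPM of *Avp*. With *Avp* and *Oxt* among the clustering genes, 1 cluster of 186 cells took 78.7% of the neuronal *Avp* and 97.1% of the neuronal *Oxt*.

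**Figure D2:**
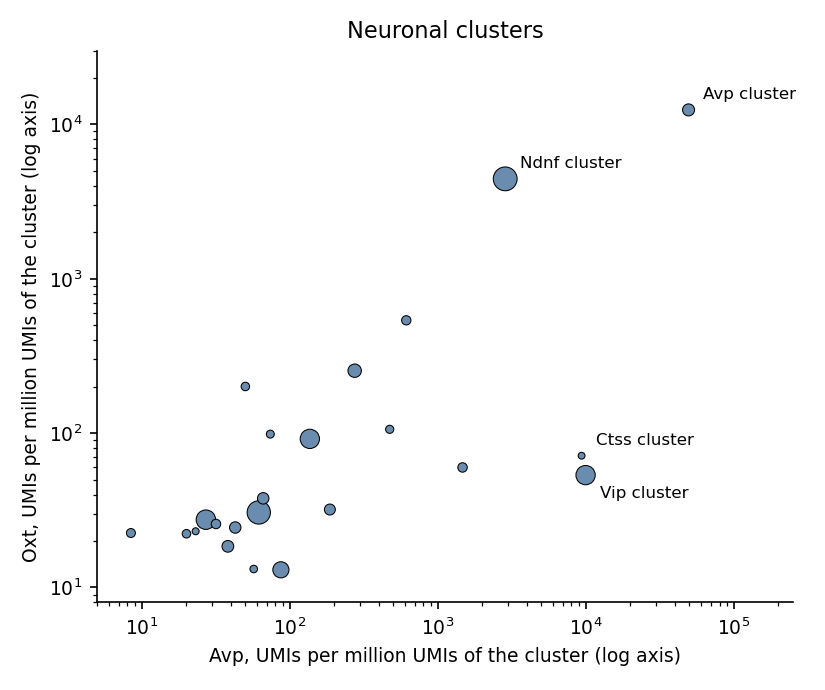
*Avp* against *Oxt* in the 23 neuronal clusters, in CPM of the cluster on log axes, with the area of a point growing with its number of cells. The *Avp* cluster is high in both genes, the *Vip* cluster is high in *Avp* at 53.4 for *Oxt*, and the *Ndnf* cluster has more *Oxt* than *Avp*.

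Over the 23 clusters, the genes whose levels were most like that of *Avp* on the log2(CPM + 10) scale, of 10551 compared, were *Oxt* (Pearson r = 0.69), *Ier2* (0.65), *Pou3f2* (0.63), *Trh* (0.62) and *Pkib* (0.62). Those most like *Oxt* were *Gm15862* (0.87), *Avp* (0.69), *Trh* (0.64), *Kcnh1* (0.60) and *Adam23* (0.58). These are descriptions over clusters that share libraries, and 1 cluster, the *Avp* cluster, is high in most of these genes.

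In single barcodes, either gene took over, but not to the same degree. Among the 341 barcodes of any kind with at least 50 UMIs of both genes together, *Avp* made up 95% to 100% of the sum in 229 and 5% to 30% in 95. Between these lay 7 barcodes at 30% to 70% and 6 at 70% to 95%, and 4 were under 5%. Barcodes with at least 100 *Oxt* UMIs and more *Oxt* than *Avp* numbered 61, from 15 libraries, and *Avp* made up a median of 17% of their sum, from 11.4% at the 10th to 23.3% at the 90th percentile. In 59 of the 61 it was over 5%. Barcodes with at least 100 *Avp* UMIs and more *Avp* than *Oxt* numbered 141, from 16 libraries, and *Oxt* made up a median of 0.418%, was at 0 in 40 and was over 5% in 7.

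The share of *Avp* in these *Oxt*-strong barcodes varied within each set they came from. It had a median of 18.6% in the 12 barcodes over the upper limit on genes, with a range of 13.3% to 23.7%. In the 24 neurons the median was 18.2% with a range of 5.22% to 25.9%, and in the 13 of them that lay in the *Avp* cluster it was 20.2%. In 17 barcodes under 200 genes it was 16.7%, with a range of 5.61% to 39.1%. The other 8, over the mitochondrial limit, ran from 0.885% to 17.1%. Differences between these sets were not tested. The sequence of 125 bases printed above is common to both transcripts. Its part in the *Avp* count of these barcodes was not tested, nor was the part of 2 cells under 1 barcode.

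**Figure D3:**
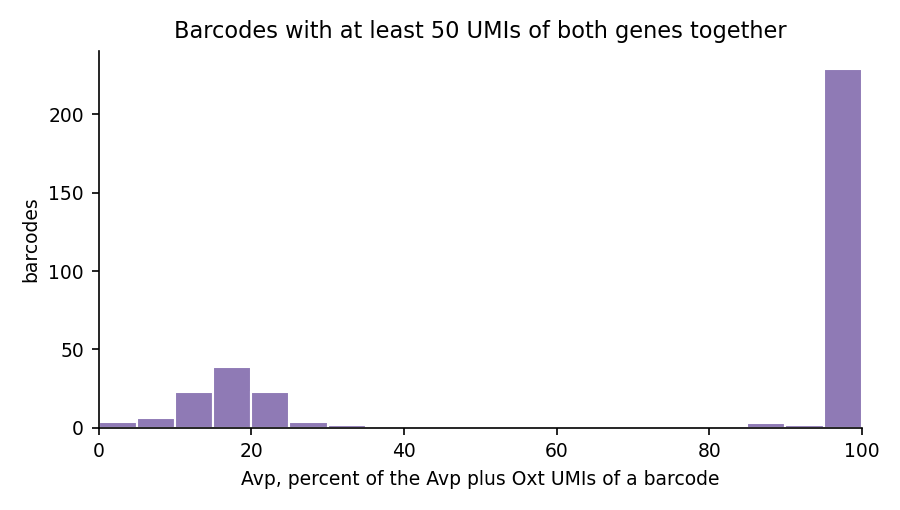
Number of barcodes by the share of *Avp* in the *Avp* plus *Oxt* UMIs of a barcode, in percent and in steps of 5, for the 341 barcodes with at least 50 UMIs of both together. There is 1 peak at 95% to 100%, with 229 barcodes, and a broad one between 5% and 30%, with 95.

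Low-gene barcodes, with 100 to 200 genes, are too poor in genes to count as cells, and both hormone messages were abundant there. The 27049 such barcodes, with a median of 212 UMIs, held 4753 *Avp* UMIs, 756 CPM pooled, and 5028 *Oxt* UMIs, 800 CPM pooled, the 74th and the 70th of 22159 genes. Of 24 neuropeptide precursors with at least 200 UMIs in neurons, *Oxt* and *Avp* ranked 1st and 2nd by their level in low-gene barcodes. Relative to the level in the kept neurons they stood far apart. The low-gene level of *Oxt* was 74.3% of its neuronal level, the 4th highest after *Trh* (83.0%), *Crh* (80.8%) and *Pmch* (75.6%), and that of *Avp* was 17.7%, the 14th. The neuronal level leaves out the barcodes over the upper limit on genes, which held 57.8% of all *Oxt* and 23.7% of all *Avp* UMIs. How far this gap between the genes rests on that limit was not tested.

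By mouse, low-gene *Avp* was 3323, 836 and 843 CPM in wild-type oil mice and 628, 2101, 500, 601 and 429 CPM in wild-type tamoxifen mice. It was 208, 308, 998 and 211 CPM in *Esr1* cKO oil mice and 709, 138, 448 and 1766 CPM in *Esr1* cKO tamoxifen mice. Low-gene *Oxt* was 1231, 721 and 750, then 899, 1644, 1377, 760 and 937, then 310, 1094, 1050 and 353, and then 1196, 138, 532 and 609 CPM in the same order of groups. The groups overlapped for both genes, and *Oxt* spanned 138 to 1644 CPM here against 66.7 to 3326 CPM in neurons.

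Much of the low-gene RNA of both genes sat in few barcodes. Those with at least 10 UMIs of the gene numbered 78 for *Avp*, with 71.7% of its low-gene UMIs, and 64 for *Oxt*, with 77.4%. The gene made up a median of 10.6% of such a barcode for *Avp* and of 18.9% for *Oxt*. Of them 26 held 10 or more of both genes. Only 1 of the 78 and 6 of the 64 had a sequence within 1 base of a rich barcode of their library. Whether these barcodes were broken neurons or free RNA was not tested.

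Of the 9 cell types, neurons alone were above the low-gene level in *Avp*, and no type passed the test as above it in *Oxt*. Paired by library, neurons exceeded low-gene barcodes in *Avp* by 2.61 ± 1.54 on the log2 scale of CPM (SD, n = 16), in 15 of 16 libraries (two-sided exact sign-flip permutation test, adjusted p = 6.46e-05). For *Oxt* the difference was -0.36 ± 1.83, with 9 of 16 libraries above (exact permutation p = 0.442). These neurons leave out the barcodes over the upper limit on genes, which held 57.8% of all *Oxt* UMIs, and the difference with them added was not tested. The other 8 types lay below in 16 of 16 libraries each, with mean log2 differences of -3.0 to -4.27 for *Avp* and of -3.58 to -4.89 for *Oxt*. CPM divides by all UMIs of a barcode, so RNA of the cell itself lowers it in real cells. With barcodes of at least 10 UMIs of the gene left out on both sides, neurons too were below the low-gene level, at -0.82 for *Avp* in 14 of 16 libraries and at -1.89 for *Oxt* in 16 of 16.

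Between the types, neurons came first for both genes, at 4545 ± 3282 CPM of *Avp* and 1089 ± 1047 CPM of *Oxt* (SD, n = 16). By their median over the 16 libraries, the others ran for *Avp* from astrocytes (73.0 CPM), microglia (56.2), mural cells (50.3) and oligodendrocytes (38.0) to endothelial cells (33.8), polydendrocytes (32.3), ependymal cells (28.1) and fibroblasts (22.5). For *Oxt* the medians ran from mural cells (54.4), microglia (53.1) and astrocytes (52.3) through oligodendrocytes (41.5), polydendrocytes (41.1) and endothelial cells (37.3) to ependymal cells (30.5) and fibroblasts (23.3). The mean of *Avp* was highest among these in endothelial cells, at 124 CPM, yet they lay above astrocytes in only 4 of 16 libraries, and 4 barcodes held 56.3% of their *Avp*. Neighbours were tested in the order of their means. Beside neurons against the next type, only microglia against ependymal cells passed, for *Avp*, with microglia higher in 14 of 16 libraries (exact sign-flip permutation test, adjusted p = 0.0383). That order is of CPM, at a median depth of 614 UMIs in microglia and 1091 in ependymal cells. Counted per 1000 barcodes with fewer than 10 *Avp* UMIs it was the reverse, 47.1 UMIs in microglia and 66.2 in ependymal cells. The part of depth in this difference was not tested.

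Counted per barcode, the low tail of both genes was highest in neurons, which were also the deepest of the types named here. Barcodes with fewer than 10 UMIs of the gene gave 49.9 *Avp* and 42.1 *Oxt* UMIs per 1000 low-gene barcodes, 42.6 and 38.1 per 1000 astrocytes, and 40.5 and 39.2 per 1000 oligodendrocytes. The other types ran from 31.3 and 33.9 in mural cells to 66.2 and 48.7 in ependymal cells, and these differences were not tested. Neurons gave 207 and 90.4, at a median depth of 1489 UMIs against 482 in astrocytes and 753 in oligodendrocytes. Within neurons, the *Vip* cluster gave 1647 *Avp* and 82.5 *Oxt* UMIs per 1000 cells, and the *Avp* cluster 335 and 807. Neurons outside both clusters gave 95.5 and 66.3, at a median depth of 1445.5 UMIs.

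At least 1 *Avp* UMI was seen in 14.5% of neurons (exact binomial interval at 95%, 13.7% to 15.2%) and 1 *Oxt* UMI in 6.96% (6.45% to 7.50%), against 3.72% and 3.27% of astrocytes, which should lack both. With every cell thinned to 500 UMIs, the shares were 10.9% of 7327 neurons and 3.16% of 6359 astrocytes for *Avp*, and 2.69% and 2.91% for *Oxt*. Thinning left out 1821 neurons and 7202 astrocytes with fewer UMIs. At least 2 *Oxt* UMIs were then left in 0.723% of neurons and 0.220% of astrocytes. The share of neurons with 1 or more *Oxt* UMIs was thus not above that of astrocytes at the same depth, while the share with 2 or more was, and 1 UMI of *Oxt* is not taken as expression here. Intervals cover counting error only.

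**Figure D4:**
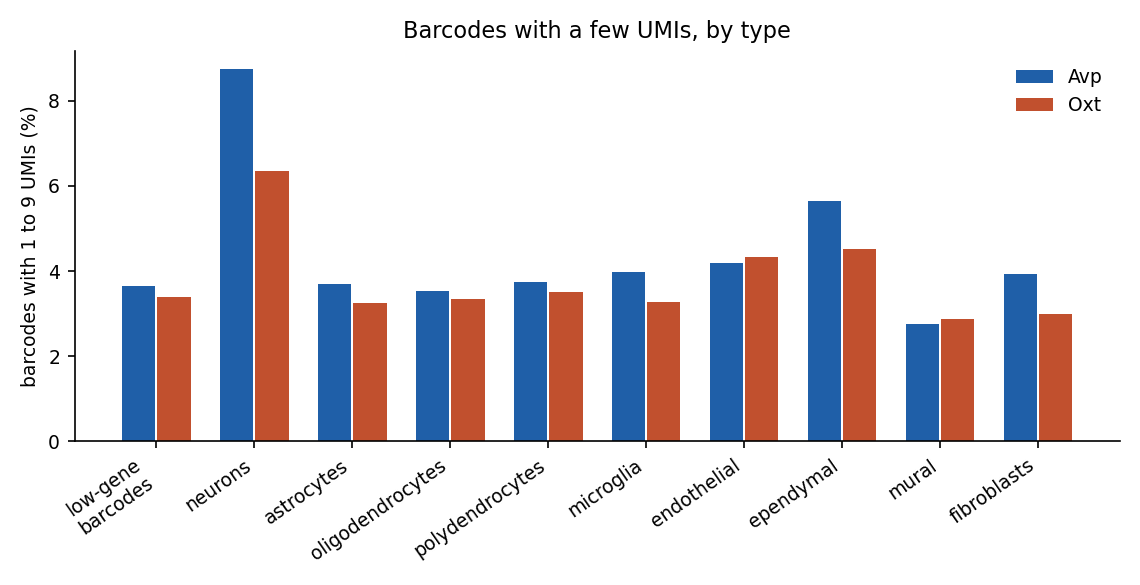
Percent of barcodes with 1 to 9 UMIs of *Avp* or of *Oxt* in low-gene barcodes and in each cell type, not corrected for depth. Neurons reach 8.73% for *Avp* and 6.34% for *Oxt* at a median of 1489 UMIs. Neurons outside the *Avp* and *Vip* clusters, not drawn apart, had 6.66% and 5.49%.

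The ratio of both genes differed between neurons and low-gene barcodes. *Avp* made up 80.6% ± 16.5 of the *Avp* plus *Oxt* UMIs of neurons (SD, n = 16) and 45.9% ± 14.5 of those in low-gene barcodes, higher in neurons in 16 of 16 libraries (exact sign-flip permutation test, p = 3.05e-05, the smallest possible, adjusted p = 6.10e-05). With the barcodes over the upper limit on genes added to the neurons, the share was 70.8% ± 20.1 and was higher in 14 of 16 (exact permutation p = 0.000214). In non-neuronal kept cells it was 54.7% ± 15.6, higher than in low-gene barcodes in 11 of 16 (exact permutation p = 0.0141). Across the 16 mice, 3 relations were tested by permutation. *Avp* and *Oxt* in neurons had r = 0.172 (p = 0.523) and rho = 0.132 (p = 0.625), with r = -0.0441 without the 2 mice farthest from the median. *Avp* in neurons and in low-gene barcodes had r = -0.0354 (p = 0.898) and rho = -0.0824 (p = 0.763), and *Oxt* r = 0.321 (p = 0.229) and rho = 0.350 (p = 0.186). All adjusted p were at least 0.557.

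Neither gene passed the test in any comparison of groups. UMIs summed over the neurons of each mouse were fitted for 12443 genes by edgeR's quasi-likelihood test with Benjamini-Hochberg adjustment. It called 0 genes, 0% of those tested, for tamoxifen in wild-type mice, for tamoxifen in *Esr1* cKO mice, for the interaction of treatment and genotype, and for genotype under oil, with 370 to 618 genes at an unadjusted p under 0.05. Under tamoxifen, *Esr1* cKO against wild-type mice gave 1 call, 0.00804%, which was *Nov* (log2 fold change 3.69, SE 0.38, adjusted p = 0.000218) and is named after its value was seen. DESeq2 called 0 to 3 genes per comparison, and neither member. In bulk sums, fewer neurons of a type and less RNA per neuron cannot be told apart.

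*Avp* in neurons averaged 3223 ± 2182 CPM in wild-type oil, 5121 ± 5244 in wild-type tamoxifen, 3353 ± 1333 in *Esr1* cKO oil and 6008 ± 2277 in *Esr1* cKO tamoxifen mice (SD, n = 3, 5, 4 and 4). The log2 fold change for tamoxifen was 0.62 in wild-type mice (SE 0.68, 95% interval -0.86 to 2.10) and 0.81 in *Esr1* cKO mice (SE 0.65, -0.60 to 2.22). Without wild-type tamoxifen replicate 2, the first of these was -0.24. The interaction was 0.19 (SE 0.93), and *Esr1* cKO against wild-type mice differed by 0.06 under oil and 0.25 under tamoxifen. Without the *Avp*-rich neurons, the last of these was -0.72 (SE 0.33, edgeR unadjusted p = 0.0470, adjusted p = 1.0). Both tamoxifen intervals include no change, and they reach further up, to 2.10 and 2.22, than down, to -0.86 and -0.60.

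*Oxt* in neurons averaged 233 ± 132, 1313 ± 1002, 1277 ± 1014 and 1265 ± 1482 CPM in the same order. The log2 fold change for tamoxifen in wild-type mice was 2.46 (SE 1.33, interval -0.43 to 5.35, edgeR unadjusted p = 0.0880) and that of genotype under oil 2.45 (SE 1.36, -0.50 to 5.40, edgeR unadjusted p = 0.0961). Both rest on the same 3 wild-type oil mice. In *Esr1* cKO mice tamoxifen against oil stood at -0.04 (SE 1.14), the interaction at -2.50 (SE 1.71, -6.22 to 1.22) and genotype under tamoxifen at -0.06 (SE 1.09). Every adjusted p in these 3 sets of sums was at least 0.842.

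The *Oxt* values depended on which barcodes were summed. Without the 57 *Oxt*-rich neurons, the wild-type tamoxifen value of 2.46 became 0.20 (SE 0.55) and the genotype value under oil 0.19. With the barcodes of 4000 genes or more added to the kept cells, the first was -0.47 (SE 1.34) against 2.18 with them out, and the second 0.65 against 2.31. *Avp* in kept cells went from 0.77 (wild type) and 0.84 (*Esr1* cKO) for tamoxifen to 0.39 and 0.17 with those barcodes added. Kept cells were fitted over 16626 genes with 0% called and 305 to 955 genes at an unadjusted p under 0.05, and DESeq2 called 0 to 1.

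In low-gene barcodes, *Avp* in *Esr1* cKO against wild-type oil mice had a log2 value of -1.91 (SE 0.82, interval -3.69 to -0.13, edgeR unadjusted p = 0.0374, adjusted p = 0.842), which did not pass the test. Leaving out 1 mouse at a time it ran from -2.59 to -0.98, and it was -0.98 without wild-type oil replicate 1, at 3323 CPM, in which 7 barcodes held 96.5% of the low-gene *Avp*. Without the barcodes holding at least 10 *Avp* UMIs it was -0.34. The other values for *Avp* were -1.04 (wild type) and 0.74 (*Esr1* cKO) for tamoxifen and -0.14 for genotype under tamoxifen, and those for *Oxt* ran from -0.83 to 0.23. Of 7120 genes tested there, 0% were called by edgeR in any comparison, with 207 to 408 at an unadjusted p under 0.05, and 0 by DESeq2.

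**Figure D5:**
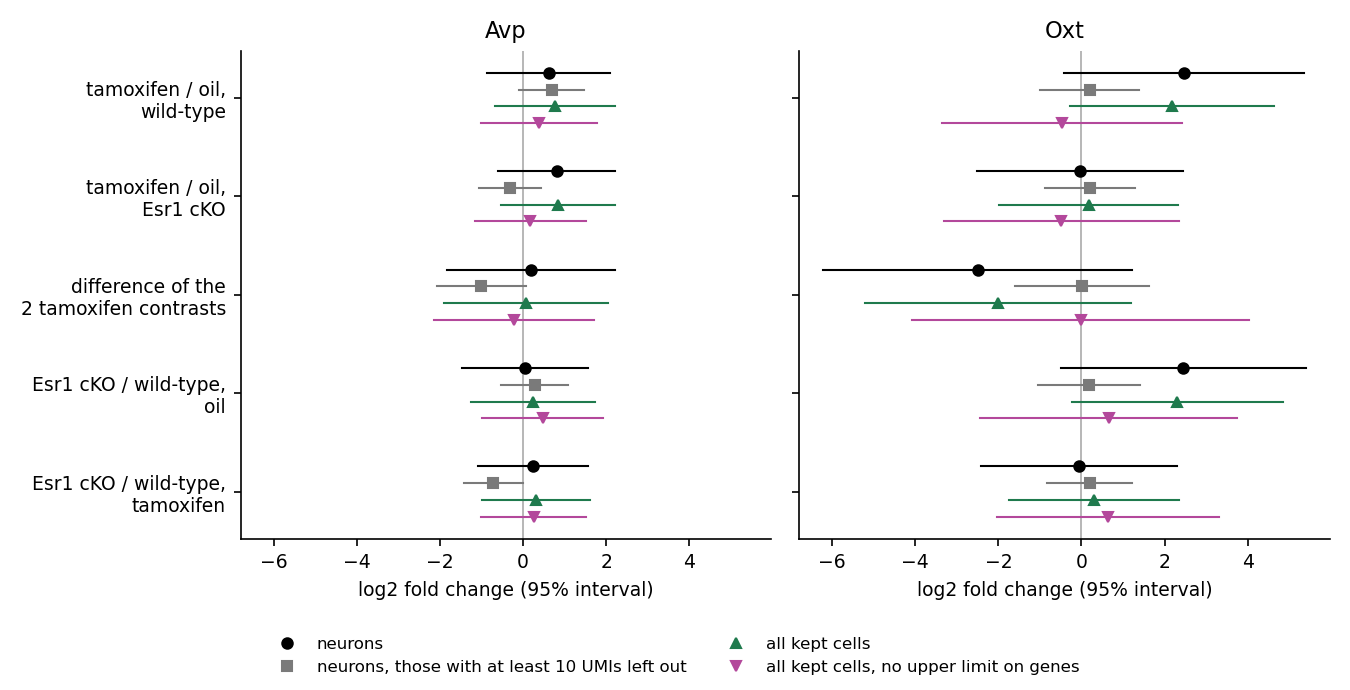
Log2 fold changes of *Avp* and *Oxt* between groups from edgeR, with 95% intervals as bars, for neurons, neurons without those of at least 10 UMIs of the gene, and kept cells with and without the upper limit on genes. The intervals cross 0 except that of *Avp* for genotype under tamoxifen without the *Avp*-rich neurons, at -0.72 (-1.42 to -0.011), and *Oxt* for tamoxifen in wild-type mice moves from 2.46 in neurons and 2.18 in kept cells to -0.47 without the upper limit.

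No difference between groups in the share of rich neurons passed the test. *Avp*-rich neurons made up 4.91% ± 4.87 of neurons in wild-type oil, 5.40% ± 1.45 in wild-type tamoxifen, 6.29% ± 2.53 in *Esr1* cKO oil and 6.11% ± 2.12 in *Esr1* cKO tamoxifen mice. *Oxt*-rich neurons made up 0.467% ± 0.385, 0.750% ± 0.415, 0.553% ± 0.207 and 0.627% ± 0.240 (SD, n = 3, 5, 4 and 4). In 8 two-sided exact permutation tests p ran from 0.375 to 0.971, and adjusted p from 0.876 to 0.971. The smallest p these designs allow, before adjustment, ran from 0.00794 to 0.0286. Adjusted over the 8 tests, no single test could have passed alone, even at its smallest p. These tests therefore cannot show that the shares were alike.

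Within the *Vip* cluster, *Avp* was 11332 ± 7585 CPM in wild-type oil, 7906 ± 1586 in wild-type tamoxifen, 7757 ± 3200 in *Esr1* cKO oil and 14220 ± 3418 in *Esr1* cKO tamoxifen mice. By mouse it ran from 3977 to 19127 CPM in wild-type oil and from 6256 to 10046 in wild-type tamoxifen mice. In *Esr1* cKO mice it ran from 4727 to 11916 under oil and from 10502 to 17987 under tamoxifen. By edgeR the interaction was 1.35 (SE 0.55, unadjusted p = 0.0294, adjusted p = 0.903), tamoxifen in *Esr1* cKO mice 0.83 (SE 0.39, unadjusted p = 0.0511, adjusted p = 0.999) and genotype under tamoxifen 0.84 (SE 0.36, unadjusted p = 0.0381, adjusted p = 0.999), among 2720 genes tested. This fit was chosen after seeing the data. Within the *Avp* cluster, with 1 to 35 cells per library, *Avp* ran from 22466 to 185573 CPM in wild-type oil, 18470 to 94588 in wild-type tamoxifen, 14641 to 52924 in *Esr1* cKO oil and 37430 to 268446 in *Esr1* cKO tamoxifen mice. The highest wild-type oil value came from 2 cells of replicate 1 and the highest *Esr1* cKO tamoxifen value from 1 cell of replicate 2, and without these libraries the highest were 43025 and 84415. *Oxt* there ran from 138 to 38776 CPM over the 16 mice, and the groups overlapped for both genes.

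The 524 *Avp*-rich neurons were compared with 5240 neurons of at least 1000 UMIs that had no more than 2 *Avp* UMIs, paired by library over 16 libraries. Of 5388 genes tested by edgeR, 752 were higher (14%) and 755 lower (14%). *Oxt* led, with 19047 UMIs against 334 and a log2 difference of 9.22 (SE 0.47, edgeR adjusted p = 8.52e-11). Of these cells 45 were *Oxt*-rich too. In the 117 neurons with at least 100 *Avp* UMIs and more *Avp* than *Oxt*, *Oxt* was a median of 0.415% of the sum. What the shared run added to either count, and so to the choice of cells, was not tested. Among called genes that were higher in all 16 libraries, the next 9 by size after *Oxt* were *Zbtb49* (3.79), *Igfbp5* (2.67), *Nnat* (2.66), *Ptbp3* (2.62), *Otp* (2.38), *C1ql3* (2.32), *Pter* (2.30), *Rora* (2.25) and *Six3* (2.23). *Otp* specifies neuroendocrine neurons, *Rora* drives clock genes, and *Six3* patterns the ventral forebrain.

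Pooled over clusters, *Avp*-rich neurons carried genes of both homes of vasopressin. In the *Avp* cluster *Vipr2* stood at 2.47 and *Rorb* at 40.4 CPM, against 286 and 741 in the *Vip* cluster. Whether single cells carried genes of both was not tested. Of the magnocellular regulators tested 6 of 7 were higher, with *Pou3f2* at 3.11 (SE 0.18), *Sim1* at 2.71 (SE 0.22) and *Caprin2*, which binds vasopressin RNA, at 2.03 (SE 0.19). All 4 suprachiasmatic genes tested were higher, with *Vipr2* at 3.91 (SE 0.19) and *Rorb* at 2.21 (SE 0.16). So were 5 of 5 clock genes, with *Nr1d1* at 1.68 (SE 0.20) and *Per3* at 0.93 (SE 0.22). Only 7 of 9 magnocellular, 4 of 10 suprachiasmatic and 5 of 11 clock genes listed entered the fit. Its filter admits a gene that is high in the *Avp*-rich cells alone. Of these cells 341 lay in the *Vip* cluster, named by suprachiasmatic genes, so these counts are a description and no separate support. Against a background of 14%, 4 of 6 genes for precursor processing were higher, with the convertase *Pcsk1* at 1.97 and the carboxypeptidase *Cpe* at 0.80. Of 5 granins, which help form secretory granules, 4 were higher, with *Vgf* at 2.08 and *Scg2* at 1.14. *Nos1* was higher at 0.71, and *Esr1* was lower at -0.86 (SE 0.26, adjusted p = 0.00644).

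Of 23 other peptide precursors listed, 9 were tested. In *Avp*-rich neurons 7 of the 9 were lower, against 14% of all genes tested, and 1 was higher, against 14% as well. That 1 was *Pdyn*, known to share granules with vasopressin, at 0.80 (SE 0.17). *Cartpt* had 16 UMIs against 9715, at -5.42, and *Npy* had 2 against 3881. *Sst* was at -2.85 and *Gal* at -1.66.

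*Oxt*-rich neurons could be compared in 9 libraries only, 45 against 3411 neurons over 6994 genes. edgeR called 48 genes higher (0.686%) and 629 lower (8.99%), and DESeq2 193 in all, and the median over all genes was -0.62. Of the genes called higher by edgeR, only 3 were higher in all 9 libraries. These were *Avp* (4.45, SE 0.35, 13311 UMIs against 20668), *Pkib*, an inhibitor of protein kinase A (1.81, SE 0.34), and *Ctsd*, a lysosomal protease (1.11, SE 0.34). The value of *Avp* includes whatever the shared run added, which was not tested.

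Of the fixed lists, the magnocellular regulators *Pou3f2* (3.05, SE 0.34), *Sim1* (2.56, SE 0.38), *Otp* (2.46, SE 0.36) and *Caprin2* (2.39, SE 0.36) were higher in *Oxt*-rich neurons, 4 of 7 tested. *Pcsk1* (2.07) and *Nos1*, the nitric oxide synthase of magnocellular cells (1.87), were higher. The granins *Scg2* (-3.55, SE 0.36), *Chga* (-1.87), *Vgf* (2 UMIs against 1649) and *Chgb* (-0.93) were lower, as was *Pcsk2* (-1.45). *Vip*, *Rgs16* and *Lhx1* had 0 UMIs in these 45 neurons, against 735, 746 and 330 in the others. The 29 *Oxt*-rich cells outside the *Avp* cluster had a median of only 490 UMIs and 239 genes, below the 1000 UMIs asked of the comparison neurons, and *Oxt* was a median of 17.9% of them. The part of this depth in the lower values was not tested.

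The receptors of both hormones were at the limit of detection. *Avpr1a*, the V1a receptor, had 119 UMIs in all neurons, 5.95 ± 2.86 CPM (SD, n = 16), with 18.0 CPM in the *Vip* cluster. *Oxtr*, the oxytocin receptor, had 133 UMIs, 7.25 ± 2.04 CPM. *Avpr1b* had 25 UMIs and *Avpr2*, the renal receptor, 4. Neither of the receptors that entered the fit was called in any comparison.

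Genes around the hormones did not pass the test between groups either. Over 9 lists (receptors, precursor processing, granins, magnocellular regulators, release, suprachiasmatic, clock, estrogen and progesterone receptors, other neuropeptides) 68 of 75 distinct genes were tested and 0 were called by edgeR in any of the 5 comparisons. In all, 36 of 355 member tests (10.1%) had an unadjusted p under 0.05, against an average of 3.82% over all genes, and the comparisons share mice. *Vip*, *Nms* and *Grp* stand on both the suprachiasmatic and the neuropeptide list and are counted once for each list. List medians ran from -0.67 to 0.23 on the log2 scale. Among the genes at an unadjusted p under 0.05, *Tac2* was at 2.40 and 2.33 for genotype under oil and tamoxifen, *Pcsk1* at 1.08 and 0.99, *Vgf* at 0.59 and 0.64, *Vipr2* at -0.75 and *Greb1*, an estrogen target, at -0.92 for genotype under tamoxifen. *Sst* was at 1.69 and *Per3* at -0.60 for tamoxifen in wild-type mice.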

How the data were processed

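The authors deposited counts of UMIs per gene and barcode for each library, unnormalized and not pooled, aligned with STAR 2.6 to mm10 per the submitters' processing notes. The counting program, its annotation and its use of strand are not given in the sources used here. The deposited barcodes had at least 20 genes (at least 100 in 2 libraries). From these counts, barcodes whose genes numbered over 200 but below 4000, with mitochondrial UMIs under 15%, were integrated and clustered with Seurat 5.3.0 (30 dimensions, 20 principal components, resolution 0.05 for all cells and 0.7 for neurons). *Avp* and *Oxt* were left out of the features that clustered the neurons. Doublets were called by Scrublet (rate 0.05, in scanpy 1.11.5), 476 in all and 3 to 101 per library, and kept except in 1 alternative.

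UMIs were summed per mouse over neurons, over kept cells and over low-gene barcodes and fitted in edgeR 4.0.16 (TMM, filterByExpr, quasi-likelihood test on all genes, Benjamini-Hochberg) with the 4 groups in 1 model, and DESeq2 1.42.0 served as an alternative. The edgeR fits of these sums were tested on simulated data first, for tamoxifen in wild-type mice, and so was the *Avp*-rich comparison. No such check is given for the *Oxt*-rich, cluster or DESeq2 fits. Other tests were exact permutation tests over mice, with 100000 draws for correlations. Mice are separate animals, while the mice of a preparation day are not named in the labels. Named genes were the members, the receptors and suprachiasmatic genes, and the 5 most alike in pattern. From each rich-neuron fit, up to 10 genes were named, those that rose most among called genes higher in every library. Genes of the other lists are given by counts with examples, which were chosen after their values were seen. The members and lists were chosen with earlier results of these data known. Promoter windows were from RefSeq, in which both members matched, and no protein sequence is used here.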

Additional observations from a re-analysis of the deposited data

Results flagged for a closer look

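In wild-type tamoxifen replicate 2, *Avp* lay far from the other 4 mice of its group in all 3 sets of barcodes, with 14401 CPM in neurons against 4021 in the nearest mouse, 4984 against 1239 in kept cells and 2101 against 628 in low-gene barcodes. In *Esr1* cKO oil replicate 3, low-gene *Avp* was 998 CPM against 308 in the nearest mouse of the group. A gap this large relative to the range of a group (Dixon's test) was looked for in 24 groups and found in these 4. Chance gives about 1 in 20 separate groups, but neurons are part of the kept cells, so the 24 are not separate and the 4 cannot be read against that share. The *Avp* in these mice was not tested further. The wild-type oil group, with 3 mice, was not searched. Its low-gene *Avp* was 3323, 836 and 843 CPM.

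Barcodes outside the kept cells also held both hormone messages. Those with 4000 genes or more held 28493 *Avp* and 45540 *Oxt* UMIs, and those removed by the mitochondrial limit held 2059 *Avp* and 3202 *Oxt* UMIs. No group comparison above uses them except the repeats without these limits.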

How the results depend on the processing

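The comparisons of groups for *Avp* and *Oxt* were repeated under other settings, as were the other tests, gene counts and cluster percentages above. Of 1629 repeats over 84 results, 1514 were counted as the same. For tested values this means the same direction and side of the threshold, so where nothing was called it needed only the same sign and no call. For gene counts it means a similar count, and for cluster percentages a move smaller than the SD over libraries. None of the 773 repeats of a fold change between groups by edgeR or DESeq2 passed an adjusted p of 0.05, and the smallest adjusted p among them was 0.538. The values below are those whose sign or size moved. Fold changes are on the log2 scale, differences in shares of neurons are in percentage points, "tamoxifen" stands for tamoxifen against oil and "genotype" for *Esr1* cKO against wild-type mice. Apart from settings that change the barcodes, genes or samples by construction, the cause of these moves was not tested.

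Without an upper limit on genes, kept cells gave -0.22 for *Avp* in the interaction, and for *Oxt* under tamoxifen -0.47 (wild type) and -0.49 (*Esr1* cKO). With the mitochondrial limit lifted too, these were -0.21, -0.32 and -0.39. With a mitochondrial share under 5%, the *Avp* interaction in neurons was -0.030, and with a share under 15% in low-gene barcodes, *Oxt* for tamoxifen in wild-type mice was -0.024. With called doublets removed, *Avp* in neurons was -0.31 for the interaction and -0.26 for genotype under tamoxifen, and the share of neurons with at least 10 *Oxt* UMIs differed by -0.000599 for tamoxifen in *Esr1* cKO mice.

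Without neurons holding at least 10 UMIs of the gene, *Avp* was -0.31 for tamoxifen in *Esr1* cKO mice, -1.0 for the interaction and -0.72 for genotype under tamoxifen, and *Oxt* was 0.21, 0.0091 and 0.20. Without low-gene barcodes holding that many, *Avp* was 0.24 for genotype under tamoxifen, and *Oxt* was -0.37 for tamoxifen in wild-type mice, 0.15 for genotype under oil and 0.11 under tamoxifen. With those barcodes left out on both sides, neurons stood at -0.82 for *Avp* and -1.89 for *Oxt* against low-gene barcodes. In the *Avp* cluster alone, the *Avp* interaction was -0.036, and *Oxt* was 0.14 for tamoxifen in *Esr1* cKO mice and 0.92 for genotype under tamoxifen. In the *Vip* cluster alone, *Avp* was -0.51 for tamoxifen in wild-type mice and -0.51 for genotype under oil. Barcodes of 20 to 99 genes gave 0.17 for *Avp* and 0.37 for *Oxt* for genotype under tamoxifen, and 1.06 for *Oxt* under oil. The *Avp* percentage of both genes was then 4.46 points higher in non-neuronal cells than in low-gene barcodes, with an exact sign-flip p of 0.0768.

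Leaving out 1 mouse at a time, *Avp* in neurons ran from -0.24 to 1.41 for tamoxifen in wild-type mice, from -0.61 to 1.06 for the interaction and from -0.27 to 0.85 for genotype under oil. *Oxt* in neurons ran from -1.14 to 0.55 for tamoxifen in *Esr1* cKO mice and from -1.16 to 0.31 for genotype under tamoxifen. In kept cells, *Avp* ran from -0.24 to 1.31 for tamoxifen in wild-type mice, from -0.46 to 1.10 for the interaction, from -0.063 to 0.78 for genotype under oil and from -0.0037 to 1.33 under tamoxifen, and *Oxt* from -1.35 to 0.53 for tamoxifen in *Esr1* cKO mice and from -1.23 to 0.71 for genotype under tamoxifen. In low-gene barcodes, *Avp* ran from -0.017 to 1.42 for tamoxifen in *Esr1* cKO mice and from -0.89 to 0.52 for genotype under tamoxifen, and *Oxt* from -0.72 to 0.031 for tamoxifen in *Esr1* cKO mice. The share of neurons with at least 10 *Avp* UMIs ran from -1.36 to 3.25 for tamoxifen in wild-type mice, from -0.903 to 1.03 for tamoxifen in *Esr1* cKO mice and from -0.468 to 4.15 for genotype under oil. The share for *Oxt* ran from -0.0514 to 0.305 for genotype under oil and from -0.222 to 0.0330 under tamoxifen. The *Avp* percentage of both genes in neurons ran from -0.883 to 12.4 points for genotype under tamoxifen.

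Without replicate 2 of the wild-type oil and of the *Esr1* cKO tamoxifen group, *Avp* for genotype under oil was -0.27 in neurons and -0.069 in kept cells, and for genotype under tamoxifen in low-gene barcodes 0.19. *Oxt* in neurons was 0.31 for tamoxifen in *Esr1* cKO mice and 0.29 for genotype under tamoxifen, and in low-gene barcodes 0.0060 for tamoxifen in *Esr1* cKO mice. The shares then differed by -0.417 (wild type) and 0.488 (*Esr1* cKO) for *Avp* and tamoxifen, and by -0.0514 for *Oxt* and genotype under oil, and the correlation of *Avp* between neurons and low-gene barcodes was 0.204. Without replicate 3 of the same groups, which stood apart in the first principal component and were chosen after seeing the data, the *Avp* interaction was -0.48 in neurons and -0.39 in kept cells, *Avp* for genotype under tamoxifen in low-gene barcodes was 0.031, and *Oxt* in neurons was 0.34 for tamoxifen in *Esr1* cKO mice and 0.32 for genotype under tamoxifen. Without the 2 mice farthest from the median, the correlation of *Avp* with *Oxt* in neurons was -0.0441.

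With other thresholds for a rich neuron, the *Avp* share for tamoxifen in *Esr1* cKO mice differed by 0.190 at 1% of a cell's UMIs and by 0.308 at 20 UMIs. The *Oxt* share at 1% differed by -0.0332 for genotype under oil and by -0.0808 for tamoxifen in *Esr1* cKO mice, and at 20 UMIs by 0.0244 for genotype under tamoxifen. At 1 UMI after thinning, genotype under tamoxifen gave -1.15 for *Avp* and 0.590 for *Oxt*. Genes higher in *Oxt*-rich neurons numbered 31 at 1% of UMIs, 28 at 20 UMIs and 85 with no filter on low counts. Genes lower numbered 1200 at 1%, 1659 with no filter and 125 by DESeq2, and 2618 genes were lower in *Avp*-rich neurons with no filter.

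With sets of 4 successive library numbers as a replicate block, *Avp* in neurons was -0.038 for genotype under oil, *Oxt* in neurons was 0.059 for genotype under tamoxifen, and *Oxt* in kept cells was -0.043 for tamoxifen in *Esr1* cKO mice. The block added no call. Over 23 pairs of mice of the same set, the correlation of their deviations from group means ran from -0.166 to 0.854 in neurons, with a median of 0.0472 against -0.0180 in other pairs, and was over 0.1 in 8. In kept cells it ran from -0.137 to 0.875, with a median of 0.118 against -0.0554, and was over 0.1 in 14. Both libraries that stood apart on the first principal component belong to 1 set. Since not every pair was over 0.1 and the labels name no day, the sets were not taken as pairs. The paper had 4 mice prepared per day over 4 days. Whether a set of 4 library numbers was 1 such day was not tested.

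Depth limits these results. A group mean of *Oxt* rests on a few neurons per mouse, the groups hold 3 to 5 mice, the *Avp* cluster has 1 to 35 cells per library, and 7 of 16 libraries had too few *Oxt*-rich neurons for the paired comparison. Counts of either gene without read positions cannot separate the shared exon sequence.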
